A study of Mus musculus with 9 samples.

Results

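Matrix metalloproteinases (MMPs), the ADAM and ADAMTS proteases and their tissue inhibitors, the TIMPs, were followed as mRNA in mouse kidney. The genes were taken by symbol, as every row of the expression table named Mmp, Adam, Adamts or Timp with a number. This gave 64 of the 26139 genes in the table, namely 20 Mmp, 22 Adam, 18 Adamts and 4 Timp genes. Of the 64, 41 reached 0.1 FPKM (fragments counted for a gene, scaled by gene length and library size) in at least 3 of the 9 libraries and are described below. The other 23 stayed under that limit, and 18 of the 41 also reached 1 FPKM in at least 3 libraries, the limit of the main test. Just inside the lower limit, by their third-highest library, lay Adamts12 at 0.104 FPKM, Adam32 at 0.114 FPKM and Mmp8 at 0.122 FPKM, and just outside it lay Adamts8 at 0.0907 FPKM, Mmp25 at 0.0776 FPKM and Timp4 at 0.0769 FPKM.

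The kidneys came from 3 groups with 3 libraries each, in a series on IgA nephropathy and an herbal preparation of Chinese medicine, the Gui-qi-yi-shen (GQYS) granules. In that disease IgA is deposited in the glomeruli. The GQYS group were mice of the genotype Itgam-IRES-hCD89 that received the granules by gavage, every day over 5 months. The IgAN group had the same genotype and received saline by gavage. The WT group were wild-type C57/BL6 mice on saline by gavage. The genotype name places human CD89, a receptor for IgA, behind Itgam, which encodes a myeloid integrin chain, so both knock-in groups carry the allele, and between IgAN and WT the allele and the disease label cannot be told apart. The sources used here do not give the age or sex of the mice or say whether kidneys were pooled. The labels do not say that the 3 libraries of a group are separate animals, and the spread behind all p-values is that between libraries, which may be partly technical.

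MMPs are zinc proteases that cut collagens, elastin, growth factors and each other's precursors, either secreted or fixed to the cell surface. ADAMs are membrane proteases that release the outer parts of cytokines, growth factors and adhesion molecules. ADAMTS proteases are secreted, and several of them cut the large proteoglycans versican and aggrecan. TIMPs bind the active site of these enzymes, with TIMP3 the broadest of them. In the kidney the family is known from the turnover of mesangial matrix and of tubular basement membranes and from fibrosis.

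Read totals worked back from the step sizes of the FPKM values lay between 30573769 and 38173879 per library. Summed FPKM of 5 proximal tubule markers was between 2075 and 2749 in every library of this kidney set. Neutrophil markers summed to 2.2 to 3.47 FPKM in GQYS libraries, 26.5 to 33.7 FPKM in IgAN libraries and 1.13 to 3.35 FPKM in WT libraries. Of these 8 markers S100a8 and S100a9 carried most of the sum, while Ly6g was at 0 in all GQYS and WT libraries and Ngp, Camp and Retnlg at 0 in several. S100a8, S100a9, Retnlg and Cxcr2 were higher in every IgAN library than in any other library. The rest were not, with Ngp at 0.0282, 0.1 and 0 FPKM and Camp at 0.546, 0 and 0 FPKM in IgAN libraries. Ly6g had 0, 0.0311 and 0.0319 FPKM there and Ltf 0.227, 0.0637 and 0.0872 FPKM. IgAN replicate 1 stood apart by a tubular injury sum of 965 FPKM, against 307 and 415 FPKM in the other IgAN libraries, and WT replicate 1 by an immediate-early gene sum of 144 FPKM, against 25.1 and 21.6 FPKM in the other WT libraries. WT replicate 3 carried 16.9 FPKM of adipocyte and 14.6 FPKM of urothelial markers.

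A pair of ADAMTS proteoglycanases moved in opposite directions. In IgAN kidneys Adamts5 fell, to 1.15 ± 0.211 FPKM in IgAN against 2.64 ± 0.157 FPKM in WT (SD, n = 3 each), and Adamts4 rose, to 1.68 ± 0.923 FPKM in IgAN against 0.221 ± 0.0405 FPKM in WT. In GQYS kidneys both lay near the WT values, Adamts5 at 2.42 ± 0.31 FPKM and Adamts4 at 0.329 ± 0.0481 FPKM. The abundant inhibitors and sheddases, Timp3, Timp2, Adam9, Adam10, Adam15 and Adam17, spread less than 3-fold over all 9 libraries. Several low-expressed members, with Timp1, Mmp19 and Mmp3 in front, were highest in IgAN replicate 1.

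**Figure D1:**
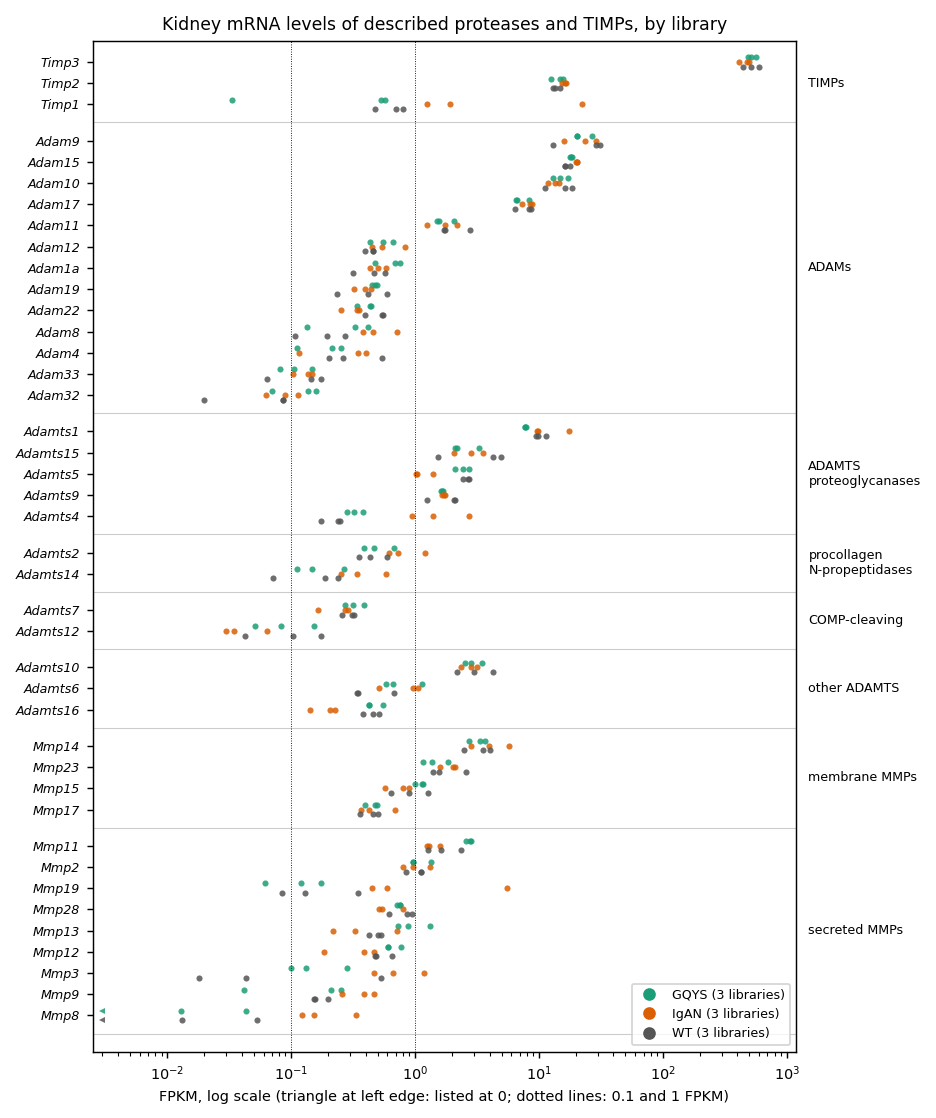
FPKM of the 41 described genes on a log axis, grouped by role, with 1 point per library coloured by group (GQYS, IgAN and WT, 3 libraries each) and dotted lines at 0.1 and 1 FPKM. Timp3 lies near 500 FPKM, most MMPs lie near or under 1 FPKM, and the IgAN points of Adamts4 and Adamts5 stand clear of the GQYS and WT points.

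Each comparison was tested with limma on log2(FPKM + 1) over the 11617 genes that reached 1 FPKM in at least 3 libraries, and again on log2(FPKM + 0.1) over the 15821 genes that reached 0.1 FPKM, which takes in all 41 described members. Fold changes on these scales understate the change of low genes. In IgAN against WT, 1 of 18 members passed an adjusted p of 0.05 in the first fit, where 0.353% of all genes passed, and 2 of 41 in the wider fit, where 0.247% did. At an unadjusted p under 0.05 there were 3 of 18 members in the first fit and 10.3% of all genes. In GQYS against IgAN, 0 of 18 and 0 of 41 members passed, against 0.198% and 0.126% of all genes. There 4 of 18 and 13 of 41 members had an unadjusted p under 0.05, where 10.4% and 11% of all genes did, and limma with voom on the recovered reads called 1, Adamts5. Timp1 is among the 3 of 18 and the 4 of 18, and Mmp8 among the 13 of 41. Each reached the limit of that fit only through its IgAN libraries, so these counts include differences built in by selection. In GQYS against WT no gene passed in either fit, a background of 0%, and voom called no member. In that comparison 1 of 18 and 2 of 41 members had an unadjusted p under 0.05, against 4.43% and 4.66% of all genes. The median log2 change of the 41 members was 0.04 in IgAN against WT, -0.07 in GQYS against IgAN and 0.03 in GQYS against WT, beside 0.02, 0.03 and 0.04 over all genes tested. The IgAN libraries enter the first 2 of these comparisons, so values from both are not independent of each other.

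Among the TIMPs, Timp3 was by far the most abundant member, and its mean in WT ranked 92 among all genes of the table. This matrix-bound inhibitor, which also blocks ADAM17 and ADAMTS4 and ADAMTS5, had 491, 518 and 571 FPKM in GQYS libraries, 415, 482 and 494 FPKM in IgAN libraries and 444, 516 and 594 FPKM in WT libraries. The 3 groups overlapped, and the log2 change in IgAN against WT was -0.15 (limma adjusted p = 0.777). Timp2, which helps membrane MMPs activate the gelatinase Mmp2, had 14.9, 12.5 and 15.6 FPKM in GQYS libraries, 16.2, 16.6 and 15.3 FPKM in IgAN libraries and 13.5, 14.9 and 13 FPKM in WT libraries. All IgAN libraries lay above all WT libraries, but the gap was small, with a log2 change of 0.20 ± 0.11 (SE, limma adjusted p = 0.596).

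Timp1 is the inhibitor best known for its induction in injured and fibrotic tissue. It had 0.0335, 0.536 and 0.574 FPKM in GQYS libraries, 22.2, 1.24 and 1.91 FPKM in IgAN libraries and 0.703, 0.794 and 0.472 FPKM in WT libraries. Every IgAN library was above every library of the other groups, but IgAN replicate 1 was 11.6 times the next IgAN library and the lowest GQYS value rested on 1 read. The log2 change was 1.69 ± 0.70 in IgAN against WT (SE, limma adjusted p = 0.419) and -1.97 ± 0.70 in GQYS against IgAN (adjusted p = 0.353). Timp1 reached the limit of 1 FPKM only through its IgAN libraries, so a difference was built into its selection for the test. Without IgAN replicate 1 the other IgAN libraries averaged 1.58 FPKM, 2.41 times the WT mean, and the log2 change was 0.63 in IgAN against WT and -0.91 in GQYS against IgAN. The tubular injury markers were highest in the same library, with Havcr1 at 43.8 FPKM in IgAN replicate 1 and 1.33 and 1.79 FPKM in the other IgAN libraries, and their part in the Timp1 level was not tested. The remaining inhibitor Timp4 stayed under the lower limit.

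The ADAMs were the second most abundant family, with a summed FPKM of 62.7 to 74.9 in GQYS libraries, 61.4 to 75.7 in IgAN libraries and 52.5 to 79.7 in WT libraries. Adam9 had 20.5, 26.9 and 20.2 FPKM in GQYS libraries, 16, 29 and 23.8 FPKM in IgAN libraries and 13, 29.2 and 30.9 FPKM in WT libraries. The groups overlapped fully, and the lowest value was that of WT replicate 1. Adam10, which cuts Notch receptors and cadherins, had 12.9, 17.3 and 14.9 FPKM in GQYS libraries, 11.9, 13.5 and 14.6 FPKM in IgAN libraries and 11.3, 16.2 and 18.5 FPKM in WT libraries. Adam17, the enzyme that releases tumour necrosis factor and ligands of the epidermal growth factor receptor, had 6.52, 8.34 and 6.72 FPKM in GQYS libraries, 7.29, 8.54 and 8.8 FPKM in IgAN libraries and 6.41, 8.66 and 8.37 FPKM in WT libraries. For Adam10 and Adam17 as well the groups overlapped.

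Adam15, an ADAM with an integrin-binding disintegrin domain, varied least of all described members, by 1.27-fold between its lowest and highest library. It had 18.3, 18.4 and 17.8 FPKM in GQYS libraries, 20.5, 20 and 20.5 FPKM in IgAN libraries and 16.2, 16.3 and 17.8 FPKM in WT libraries. The IgAN libraries lay above all others, and the differences did not pass, with a log2 change of 0.27 ± 0.09 in IgAN against WT (SE, limma adjusted p = 0.288) and -0.16 ± 0.09 in GQYS against IgAN (adjusted p = 0.611). The 1 further ADAM in the main test, Adam11, ranged from 1.24 to 2.77 FPKM.

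The other 8 described ADAMs stayed between 0.02 and 0.835 FPKM in every library. They were Adam8, found on leukocytes, the meltrins Adam12 and Adam19, Adam33, Adam22, a brain protein known for binding LGI ligands, and Adam1a, Adam4 and Adam32. Adam8 had 0.135, 0.329 and 0.419 FPKM in GQYS libraries, 0.718, 0.459 and 0.378 FPKM in IgAN libraries and 0.271, 0.194 and 0.108 FPKM in WT libraries. The IgAN values were above all WT values and overlapped the GQYS values, with a log2 change of 1.09 ± 0.36 in IgAN against WT (SE, limma adjusted p = 0.284 in the wider fit). Adam8 is named here after its values were seen. The 9 ADAMs under the lower limit included Adam1b and Adam3, which were at 0 in all libraries.

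The ADAMTS proteoglycanases held the members that passed the test. Adamts5, the main aggrecan-cutting enzyme of mouse cartilage, had 2.1, 2.44 and 2.72 FPKM in GQYS libraries, 1.02, 1.03 and 1.39 FPKM in IgAN libraries and 2.7, 2.75 and 2.46 FPKM in WT libraries. All 3 IgAN libraries lay below all 6 others, and the GQYS and WT libraries overlapped. These values rest on between 257 and 866 reads per library. Adamts5 fell by 0.76 on the log2 scale in IgAN against WT (SE 0.12, limma adjusted p = 0.0292), and in the wider fit by 1.15 (SE 0.17, adjusted p = 0.0344). In GQYS against IgAN the log2 change was 0.67 ± 0.12 (SE, adjusted p = 0.0626) and in GQYS against WT it was -0.09 ± 0.12 (adjusted p = 0.999).

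The call of Adamts5 in IgAN against WT ended without any 1 of 7 libraries, with adjusted p of 0.0627 and 0.0539 without GQYS replicates 2 and 3, 0.0983, 0.0978 and 0.0608 without IgAN replicates 1, 2 and 3, and 0.111 and 0.0721 without WT replicates 2 and 3. The log2 change stayed between -0.84 and -0.72 over all 9 such fits. In GQYS against IgAN the adjusted p was 0.0449 without WT replicate 1, 0.016 with library quality weights and 0.0447 with voom. The fibroblast and mesangial markers summed to 49.7 to 59.3 FPKM in GQYS libraries, 42.8 to 74.1 FPKM in IgAN libraries and 45.9 to 59.8 FPKM in WT libraries. Of these 8 markers only Tcf21 was called lower in IgAN against WT in the wider fit, at 6.23 to 9.44 FPKM against 18.2 to 24.7 FPKM. In GQYS against IgAN 1 of the 8 was called higher, beside 0.126% of all genes called. The list did not move together. Col1a2 was at 11.1 to 17.6 FPKM in IgAN libraries and 7.9 to 11.1 FPKM in WT libraries, while Itga8 was at 1.08 to 1.5 FPKM and 1.31 to 1.63 FPKM. The part of these markers in the Adamts5 level was not tested, and in bulk tissue fewer cells of a type and less RNA per cell cannot be told apart.

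Adamts4, the other classical aggrecanase, had 0.284, 0.324 and 0.379 FPKM in GQYS libraries, 2.72, 0.946 and 1.39 FPKM in IgAN libraries and 0.248, 0.241 and 0.174 FPKM in WT libraries. The lowest IgAN library was above the highest of the other 6, and the 3 GQYS libraries were also all above the 3 WT libraries. The underlying reads numbered 60, 77 and 75 in GQYS libraries, 525, 205 and 293 in IgAN libraries and 55, 58 and 34 in WT libraries. Adamts4 did not reach the limit of the main test, its third-highest library being at 0.946 FPKM. In the wider fit it rose by 2.36 on the log2 scale in IgAN against WT (SE 0.33, limma adjusted p = 0.0203). In GQYS against IgAN the log2 change was -1.94 ± 0.33 (SE, adjusted p = 0.0656) and in GQYS against WT 0.42 ± 0.33 (adjusted p = 1).

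The call of Adamts4 was lost without IgAN replicate 3 (log2 change 2.43, limma adjusted p = 0.0905), WT replicate 2 (2.41, adjusted p = 0.0768) or WT replicate 3 (2.25, adjusted p = 0.0791), and with a pseudocount of 1 (1.08, adjusted p = 0.0567). With only the compared groups in the fit the call was lost too (2.36, adjusted p = 0.1). Without GQYS replicate 1 or 3 the call stood at the threshold, with adjusted p of 0.05 and 0.0497. Without IgAN replicate 1 it held, with a log2 change of 1.97 (adjusted p = 0.0405), and the other IgAN libraries then averaged 5.28 times the WT mean.

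Set against each other within a library, Adamts4 was 0.135, 0.133 and 0.139 times Adamts5 in GQYS libraries, 2.67, 0.919 and 0.998 times in IgAN libraries and 0.0918, 0.0874 and 0.0709 times in WT libraries, in FPKM. The 3 groups did not overlap in this ratio, which was chosen after the values of both genes were seen and is given without a test. In IgAN replicates 2 and 3 the pair was near parity, in IgAN replicate 1 Adamts4 was the higher gene, and in the other groups Adamts5 was the higher gene in every library.

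**Figure D2:**
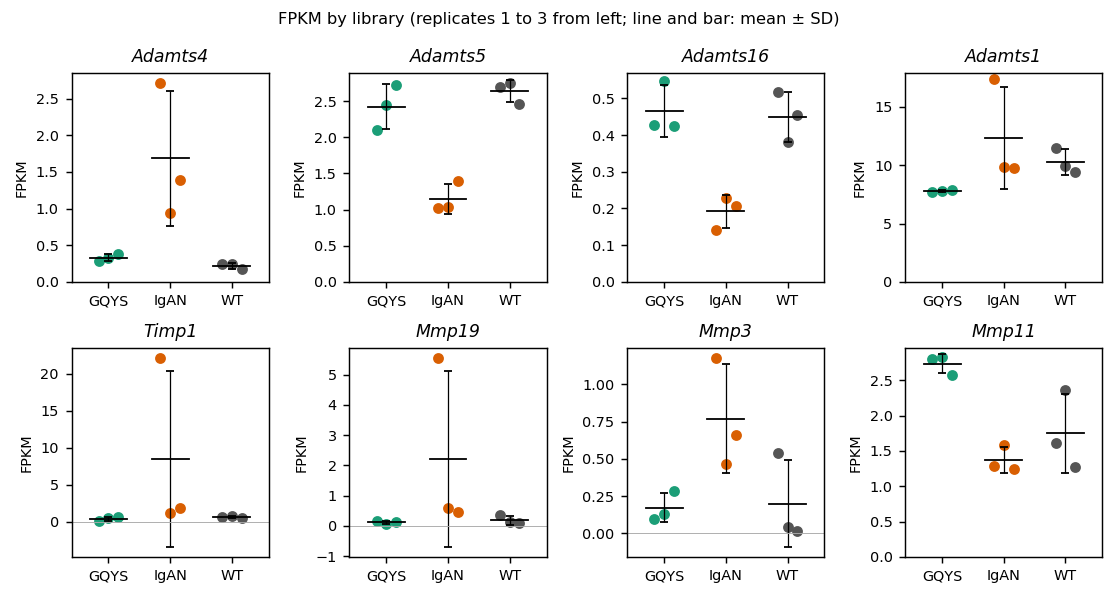
FPKM of Adamts4, Adamts5, Adamts16, Adamts1, Timp1, Mmp19, Mmp3 and Mmp11 by group (GQYS, IgAN, WT from left), each point a library and each line and bar the mean and SD of 3 libraries. Adamts5 and Adamts16 are lowest in the 3 IgAN libraries and Adamts4 is highest there, while Timp1 and Mmp19 are drawn up by IgAN replicate 1 at 22.2 and 5.56 FPKM.

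Adamts1, a versican- and aggrecan-cutting enzyme that was the most abundant ADAMTS, had 7.7, 7.77 and 7.84 FPKM in GQYS libraries, 17.4, 9.85 and 9.72 FPKM in IgAN libraries and 11.5, 9.9 and 9.44 FPKM in WT libraries. The GQYS libraries lay close together and below all others. The log2 change was -0.56 ± 0.19 in GQYS against IgAN (SE, limma adjusted p = 0.340) and -0.36 ± 0.19 in GQYS against WT (adjusted p = 0.999). Without IgAN replicate 1 the log2 change in GQYS against IgAN was -0.30 (adjusted p = 0.590). Adamts15, another versican-cutting member, had 3.27, 2.17 and 2.11 FPKM in GQYS libraries, 2.85, 3.53 and 2.06 FPKM in IgAN libraries and 1.54, 4.95 and 4.25 FPKM in WT libraries, with WT replicate 1 at the bottom and the other WT libraries at the top. Adamts9 stayed between 1.25 and 2.12 FPKM, and Adamts8 and Adamts20 were under the lower limit.

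Among the other ADAMTS genes, Adamts16, linked to blood pressure in rat genetic studies, was lowest in the IgAN libraries, as was Adamts5. It had 0.426, 0.548 and 0.424 FPKM in GQYS libraries, 0.141, 0.228 and 0.207 FPKM in IgAN libraries and 0.516, 0.38 and 0.455 FPKM in WT libraries, on 38 to 182 reads. All IgAN libraries were below all others. The log2 change was -0.92 ± 0.22 in IgAN against WT (SE, limma adjusted p = 0.144 in the wider fit) and 0.96 ± 0.22 in GQYS against IgAN (adjusted p = 0.157), so neither passed. Adamts16 was picked for full values after they were seen. Adamts10 and Adamts6, a related pair that acts on fibrillin microfibrils, ranged from 2.18 to 4.28 FPKM and from 0.34 to 1.14 FPKM, with overlapping groups.

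Of the procollagen N-propeptidases, which trim the ends of new fibrillar collagens, Adamts2 and Adamts14 were described. Adamts2 had 0.39, 0.471 and 0.672 FPKM in GQYS libraries, 1.21, 0.621 and 0.732 FPKM in IgAN libraries and 0.599, 0.432 and 0.352 FPKM in WT libraries. Adamts14 had 0.269, 0.112 and 0.147 FPKM in GQYS libraries, 0.589, 0.252 and 0.341 FPKM in IgAN libraries and 0.24, 0.188 and 0.0714 FPKM in WT libraries. For both genes every IgAN library was above every WT library and overlapped the GQYS range, at limma adjusted p of 0.379 and 0.396 in the wider fit of IgAN against WT. The cartilage protein COMP is cut by Adamts7 and Adamts12, which stayed between 0.0301 and 0.385 FPKM with overlapping groups. Adamts13, the liver enzyme that cuts von Willebrand factor, was under the lower limit together with Adamts3, Adamts17 and Adamts18.

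The membrane MMPs were led by Mmp14, which activates the precursor of the gelatinase Mmp2 at the cell surface. It had 3.71, 2.74 and 3.38 FPKM in GQYS libraries, 5.79, 2.84 and 3.97 FPKM in IgAN libraries and 3.54, 4.02 and 2.5 FPKM in WT libraries, with overlapping groups and the highest value in IgAN replicate 1. Mmp23 had 1.84, 1.17 and 1.37 FPKM in GQYS libraries, 2.03, 1.58 and 2.1 FPKM in IgAN libraries and 2.58, 1.41 and 1.57 FPKM in WT libraries, and its groups overlapped. Mmp15, a transmembrane relative of Mmp14, had 1.15, 1.16 and 1.01 FPKM in GQYS libraries, 0.575, 0.89 and 0.803 FPKM in IgAN libraries and 0.645, 0.891 and 1.27 FPKM in WT libraries. The GQYS libraries lay above all IgAN libraries and within the WT range, with a log2 change of 0.27 ± 0.13 in GQYS against IgAN (SE, limma adjusted p = 0.560). Only the GQYS libraries and WT replicate 3 reached 1 FPKM. Mmp15 thus entered the main test through its GQYS libraries, so a difference from IgAN was built into its selection. Mmp17 ranged from 0.363 to 0.694 FPKM, and Mmp16, Mmp24 and Mmp25 were under the lower limit.

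Of the secreted MMPs the most abundant was Mmp11, or stromelysin-3, an enzyme of stromal cells that is activated inside the cell. It had 2.8, 2.83 and 2.58 FPKM in GQYS libraries, 1.29, 1.59 and 1.24 FPKM in IgAN libraries and 1.61, 2.37 and 1.27 FPKM in WT libraries. All GQYS libraries were above all others, while IgAN and WT overlapped. The log2 change was 0.66 ± 0.15 in GQYS against IgAN (SE, limma adjusted p = 0.138) and 0.46 ± 0.15 in GQYS against WT (adjusted p = 0.913), and neither passed. With library quality weights the adjusted p in GQYS against IgAN was 0.031. In the GENCODE M21 annotation exons of Mmp11 overlap exons of Chchd10 on the opposite strand, which was at 168 to 220 FPKM in GQYS libraries, 182 to 240 FPKM in IgAN libraries and 147 to 263 FPKM in WT libraries. The part of Chchd10 reads in the Mmp11 values was not tested. The sources used here do not say whether counting used strand, so for any member reads of a gene that overlaps it on the opposite strand cannot be told apart from its own.

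Mmp2, or gelatinase A, ranged from 0.8 to 1.35 FPKM and Mmp28, or epilysin, from 0.513 to 0.942 FPKM, both with overlapping groups. Mmp9, the gelatinase B stored in neutrophils, had 0.251, 0.21 and 0.042 FPKM in GQYS libraries, 0.387, 0.468 and 0.26 FPKM in IgAN libraries and 0.157, 0.2 and 0.153 FPKM in WT libraries. All IgAN libraries were above all others, with limma adjusted p of 0.471 in IgAN against WT and 0.381 in GQYS against IgAN in the wider fit. Mmp19, whose exons overlap those of Tmem198b on the opposite strand, had 0.173, 0.0614 and 0.12 FPKM in GQYS libraries, 5.56, 0.598 and 0.45 FPKM in IgAN libraries and 0.345, 0.129 and 0.0842 FPKM in WT libraries. Here too all IgAN libraries were above all others, but IgAN replicate 1 was 9.29 times the next. The log2 change of Mmp19 was 2.29 ± 0.75 in IgAN against WT (SE, adjusted p = 0.287) and 1.22 without IgAN replicate 1. Tmem198b itself was at 1.46 to 1.75 FPKM in GQYS libraries, 1.11 to 1.38 FPKM in IgAN libraries and 1.15 to 1.94 FPKM in WT libraries.

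On chromosome 9 lies a cluster of secreted MMP genes, of which Mmp3, Mmp8, Mmp12 and Mmp13 were described. None of these 4 reached the limit of the main test, and none passed in the wider fit as reported. Mmp3 did pass there in IgAN against WT with library quality weights (limma adjusted p = 0.0263) or without WT replicate 1 (adjusted p = 0.0313). The promoters of the 4 genes are shown as context for the values that follow. Each sequence runs from 250 bases before to 50 bases after the gene start, on the plus strand, from RefSeq with the build GRCm38.p6. They lie at chr9:7445572-7445871 (Mmp3), chr9:7558179-7558478 (Mmp8), chr9:7347124-7347423 (Mmp12) and chr9:7272264-7272563 (Mmp13). Capitals mark matches to the AP-1 letters TGANTCA and to the TATA letters TATAAA, searched on both strands, which do not overlap each other here.
Mmp3: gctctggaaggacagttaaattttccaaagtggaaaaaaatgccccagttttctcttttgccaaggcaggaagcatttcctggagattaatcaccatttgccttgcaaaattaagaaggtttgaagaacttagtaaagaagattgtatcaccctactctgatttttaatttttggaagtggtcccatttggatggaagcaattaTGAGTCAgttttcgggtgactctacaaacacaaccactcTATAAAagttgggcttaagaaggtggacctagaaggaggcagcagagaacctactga
Mmp8: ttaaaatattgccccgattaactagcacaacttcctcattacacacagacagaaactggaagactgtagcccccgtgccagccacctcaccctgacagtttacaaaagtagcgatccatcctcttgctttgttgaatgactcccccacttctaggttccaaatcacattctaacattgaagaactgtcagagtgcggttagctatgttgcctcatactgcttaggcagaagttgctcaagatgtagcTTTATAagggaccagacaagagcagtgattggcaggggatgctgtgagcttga
Mmp12: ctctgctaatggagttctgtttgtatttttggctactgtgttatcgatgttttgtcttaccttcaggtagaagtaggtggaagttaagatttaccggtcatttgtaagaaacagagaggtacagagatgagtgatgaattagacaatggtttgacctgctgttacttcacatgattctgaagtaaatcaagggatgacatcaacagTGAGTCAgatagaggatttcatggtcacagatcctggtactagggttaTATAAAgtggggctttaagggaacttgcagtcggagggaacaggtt
Mmp13: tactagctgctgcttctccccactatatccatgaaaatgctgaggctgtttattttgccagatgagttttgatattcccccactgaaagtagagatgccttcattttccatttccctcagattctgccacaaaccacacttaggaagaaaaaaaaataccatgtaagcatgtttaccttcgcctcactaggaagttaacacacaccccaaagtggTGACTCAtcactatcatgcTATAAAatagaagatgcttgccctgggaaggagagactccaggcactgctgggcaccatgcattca

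The AP-1 letters stood at position -46 in the Mmp3 promoter, -44 in that of Mmp12 and -35 in that of Mmp13, counted by the first base of the match with the gene start as 1. The TATA letters stood at -7, 5 and -16 in the same order. In the Mmp8 promoter no AP-1 letters were found and the TATA letters lay on the reverse strand, at -3. A further listed promoter of Mmp12, at chr9:7344147-7344446, held neither. Of all 32851 promoters listed by RefSeq, 7.81% held the AP-1 letters and 13.6% the TATA letters. Of the 45 promoters listed for 40 members, 8 held the AP-1 letters, 9 the TATA letters, 3 the STAT letters TTCNNNGAA (8.3% of all promoters) and 0 the NF-kB letters (GGGA, any base, then TTTCC; 0.411% of all promoters). Matches describe the letters only.

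Mmp3, or stromelysin-1, had 0.0994, 0.133 and 0.284 FPKM in GQYS libraries, 1.18, 0.469 and 0.664 FPKM in IgAN libraries and 0.537, 0.0436 and 0.018 FPKM in WT libraries. The IgAN libraries were above all GQYS libraries, and in WT only replicate 1, the library with the high immediate-early sum, reached the IgAN range. The log2 change was 1.90 ± 0.59 in IgAN against WT (SE, limma adjusted p = 0.255) and -1.66 ± 0.59 in GQYS against IgAN (adjusted p = 0.340). Without WT replicate 1 the log2 change in IgAN against WT was 2.66, with an adjusted p of 0.0313. The immediate-early genes include subunits of AP-1, and their part in the Mmp3 level was not tested.

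Mmp8, the neutrophil collagenase, had 0, 0.0433 and 0.013 FPKM in GQYS libraries, 0.333, 0.154 and 0.122 FPKM in IgAN libraries and 0, 0.0534 and 0.0132 FPKM in WT libraries. The IgAN libraries were above all others, on 25, 13 and 10 reads against at most 5 reads in any other library. Mmp8 entered the wider fit only through its IgAN libraries, so the difference was built into its selection, and it did not pass there (limma adjusted p = 0.167 in IgAN against WT and 0.175 in GQYS against IgAN). The sum of the neutrophil markers given above was high in the same 3 libraries, though Ngp, Camp, Ltf and Ly6g were not. The part of these markers in the Mmp8 and Mmp9 levels was not tested. Mmp10, or stromelysin-2, was listed at 0.321 FPKM in IgAN replicate 1 and at 0 in the other 8 libraries. The number of reads behind a gene seen in a single library cannot be worked back, and Mmp10 was not tested.

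Mmp12, the macrophage elastase, had 0.609, 0.767 and 0.609 FPKM in GQYS libraries, 0.39, 0.185 and 0.468 FPKM in IgAN libraries and 0.475, 0.659 and 0.489 FPKM in WT libraries. Mmp13, or collagenase-3, had 0.736, 1.32 and 0.883 FPKM in GQYS libraries, 0.33, 0.218 and 0.715 FPKM in IgAN libraries and 0.425, 0.529 and 0.508 FPKM in WT libraries. For both genes all GQYS libraries were above all IgAN libraries, and Mmp13 in GQYS libraries was also above all WT libraries. For Mmp12 the GQYS and WT libraries overlapped and all IgAN libraries were below all WT libraries. Its log2 change in IgAN against WT was -0.56 ± 0.28 (SE, limma adjusted p = 0.528 in the wider fit). The log2 change in GQYS against IgAN was 0.82 ± 0.28 for Mmp12 (SE, limma adjusted p = 0.313 in the wider fit) and 1.13 ± 0.34 for Mmp13 (adjusted p = 0.251). The macrophage markers summed to 52.3 to 61.6 FPKM in GQYS libraries, 71.1 to 108 FPKM in IgAN libraries and 42 to 84.4 FPKM in WT libraries, and their part in the Mmp12 level was not tested. Full values of Mmp3, Mmp8, Mmp9, Mmp12, Mmp13 and Mmp19 and of Adamts2 and Adamts14 are given after they were seen.

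**Figure D3:**
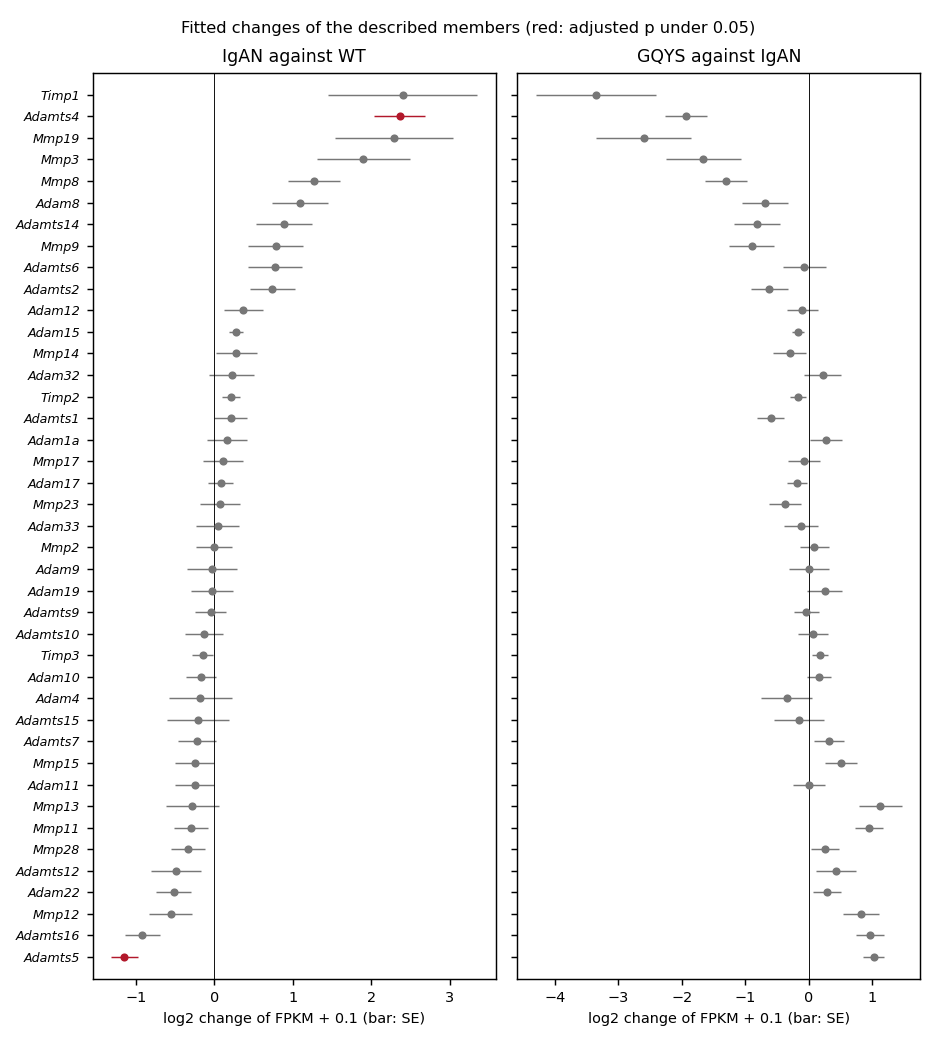
Log2 changes of FPKM + 0.1 with their SE for the 41 described genes, in IgAN against WT (left) and GQYS against IgAN (right), ordered by the left panel; red marks an adjusted p under 0.05. Adamts4 at 2.36 and Adamts5 at -1.15 are the only red points, both at left, and the panels share the IgAN libraries.

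Ranges of libraries that did not overlap were counted for all described members as a description. In IgAN against WT 14 of 41 members had such ranges, 10 higher and 4 lower in IgAN, where 14.4% of all 15821 genes did, 8.53% higher and 5.87% lower. In GQYS against IgAN 15 of 41 did, 7 higher and 8 lower in GQYS, where 19.5% of all genes did, 11% higher and 8.5% lower. In GQYS against WT 4 of 41 did, Adamts1, Adamts4, Mmp11 and Mmp13, where 9.99% of all genes did. The exact 2-sided permutation p of each such member is 0.1, the smallest that 3 against 3 libraries allow. IgAN replicate 1 held the highest value of 11 of the 41 described members, and no other library of more than 6. WT replicates 1 and 3 each held the lowest value of 9. The shares of all genes highest or lowest in each library were not counted, so these numbers are not read as a trait of the members. Mmp8 passed the lower limit only through its IgAN libraries and so adds to these counts by selection.

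Of the genes that act on or with these proteases, 25 regulators and partners were listed, of which 22 were tested. Plat was the only member of that list past the threshold, in IgAN against WT, where 0.353% of all genes passed. This gene encodes tissue plasminogen activator, which starts the plasmin cascade that activates MMPs. It had 25.2, 26.4 and 26.2 FPKM in GQYS libraries, 34.4, 26.8 and 30.8 FPKM in IgAN libraries and 20.7, 18.1 and 18.1 FPKM in WT libraries. The IgAN libraries were above all others and the GQYS libraries above all WT libraries. Plat rose by 0.66 on the log2 scale in IgAN against WT (limma adjusted p = 0.0447), a call that held without IgAN replicate 2 or WT replicate 1 and ended without any 1 of the other 7 libraries (adjusted p up to 0.177). In GQYS against IgAN the adjusted p was 0.540. In the 2 comparisons with GQYS none of the 22 passed, and 4 had an unadjusted p under 0.05 against IgAN and 2 against WT, beside 10.4% and 4.43% of all genes. In IgAN against WT 7 of the 22 did, beside 10.3% of all genes. The urokinase receptor Plaur, at 11.9 FPKM in IgAN replicate 1 and 3.42 and 3.72 FPKM in the other IgAN libraries, against 1.06 to 1.53 FPKM in WT libraries, did not pass (adjusted p = 0.139).

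Among 26 proteins shed by ADAMs, 22 were tested, and the adhesion molecules Vcam1 and Icam1 passed in 2 comparisons. Of all genes 0.353% passed in IgAN against WT and 0.198% in GQYS against IgAN. At an unadjusted p under 0.05 there were 6 of the 22 in IgAN against WT, 6 in GQYS against IgAN and 0 in GQYS against WT. The shares of all genes were 10.3%, 10.4% and 4.43%. Vcam1 had 3.54, 3.13 and 3.75 FPKM in GQYS libraries, 8.43, 7.72 and 8.27 FPKM in IgAN libraries and 3.46, 3.82 and 2.43 FPKM in WT libraries. Icam1 had 8.34, 7.01 and 9.28 FPKM in GQYS libraries, 18.2, 16.1 and 18.1 FPKM in IgAN libraries and 8.96, 7.86 and 5.8 FPKM in WT libraries. For both genes the IgAN libraries were above all others, while Adam17, which sheds them, and Adam10 overlapped between all groups. Vcam1 and Icam1 rose in IgAN against WT (limma adjusted p = 0.0107 and 0.0172) and fell in GQYS against IgAN (0.0174 and 0.0457). The first pair of calls ended without IgAN replicate 3 (0.0608 and 0.102), that of Icam1 also without IgAN replicate 1 (0.0662) or WT replicate 2 (0.0665), and those in GQYS against IgAN ended without any 1 GQYS or IgAN library (adjusted p between 0.0711 and 0.161) and for Icam1 without WT replicate 2 (0.0717). Cx3cl1, another membrane-bound protein that ADAMs release, was next at an adjusted p of 0.0755 in IgAN against WT.

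Of 23 proteoglycans and matrix proteins that these enzymes cut, 16 were tested and none passed in any comparison by limma, with 6 at an unadjusted p under 0.05 in IgAN against WT, 3 in GQYS against IgAN and 1 in GQYS against WT, beside 10.3%, 10.4% and 4.43% of all genes. In IgAN against WT the smallest p was that of Col4a1, a basement membrane collagen chain at 38, 39.9 and 40.1 FPKM in GQYS libraries, 54.7, 41.2 and 46.7 FPKM in IgAN libraries and 27.5, 32.2 and 35.7 FPKM in WT libraries (adjusted p = 0.129). Of 14 further metalloproteinases and ADAMTS-like proteins 6 were tested and none passed, with 3 at an unadjusted p under 0.05 in IgAN against WT, 2 in GQYS against IgAN and 0 in GQYS against WT, beside the same shares of all genes. In IgAN against WT the smallest p was that of Pcolce, an enhancer of procollagen processing, at 40.4, 43.1 and 42.9 FPKM in GQYS libraries, 71.4, 54.6 and 53.6 FPKM in IgAN libraries and 50.9, 41.5 and 36.7 FPKM in WT libraries (adjusted p = 0.260). The smallest p in GQYS against IgAN was that of Adamtsl4, an ADAMTS-like protein without protease domain, at 0.709, 0.46 and 0.349 FPKM in GQYS libraries, 2.06, 1.19 and 1.24 FPKM in IgAN libraries and 0.851, 0.908 and 0.33 FPKM in WT libraries (adjusted p = 0.173). Adamtsl4 reached the limit of 1 FPKM only through its IgAN libraries, so a difference was built into its selection. It is among the 3 and the 2 genes counted for this list.

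**Figure D4:**
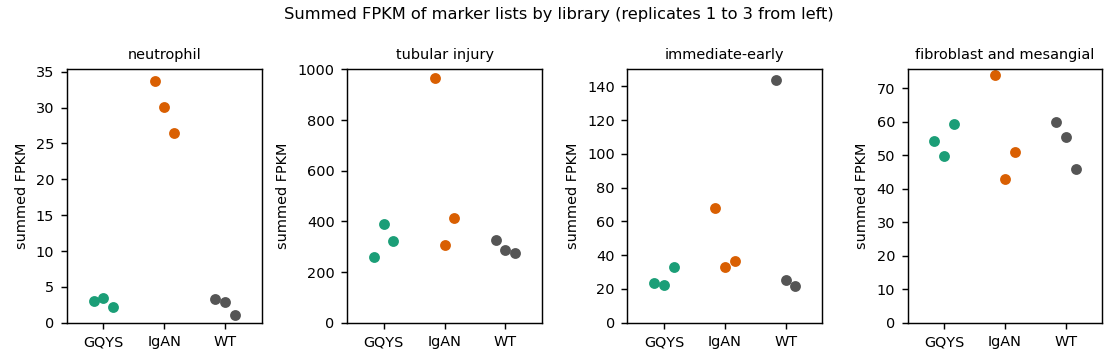
Summed FPKM of 4 marker lists by library, with GQYS, IgAN and WT from left and replicates 1 to 3 within each group. The neutrophil sum is 26.5 to 33.7 in the 3 IgAN libraries and at most 3.47 elsewhere, the tubular injury sum is 965 in IgAN replicate 1, and the immediate-early sum is 144 in WT replicate 1.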

How the data were processed

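Kidney RNA of 9 libraries was measured, and the authors deposited FPKM values of 26139 gene symbols in a single table. Per the submitters' processing notes, GRCm39 was the build and DESeq2, fastp, HISAT2, HTSeq and R 3.2.0 were used, in roles they do not state. The sources used here give neither the annotation nor the strand setting of the counting.

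FPKM scales reads by gene length and library total, so the level of a few very abundant genes moves that of the rest. Low values moved in steps, from which whole reads were recovered within 0.03 reads for 26137 genes, which for a gene seen in a single library is so by construction. The totals differed from the step sizes by at most 0.0511%. No replicates were identical, and the chi-square per gene between pairs was 17.7 to 190.

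Genes were tested with limma (version 3.58.1, in R 4.3.3), with a mean-variance trend over all 9 libraries, on log2(FPKM + 1) of genes at 1 FPKM or more in at least 3 libraries, with Benjamini-Hochberg adjustment over all genes tested. A wider fit with limits of 0.1 FPKM and a pseudocount of 0.1 reached the other described members. The settings varied within that wider fit were added after seeing the data. The fits were checked on simulated data. Replicate numbers were not used as a block in the main fits, since the labels name no pairing behind them. Exact permutation tests used Python 3.11.15 with scipy 1.17.1, and figures matplotlib 3.10.9.

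Members, gene lists and tests were chosen with earlier results of these data known. Full values were given for Adamts5, Timp1, members past the threshold, the 6 tested members of smallest p per comparison and the 8 of highest mean. A planned split of the ADAMs by their catalytic motif was not made. Some overlaps of members with other genes are not reported here. Those named were taken from GENCODE M21, and promoters and their coordinates from RefSeq tables of GRCm38.p6, which is not the build named by the submitters.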

Additional observations from a re-analysis of the deposited data

How the results depend on the processing

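For IgAN against WT, 1 member passed as reported. The number was 2 with the limits of 0.1 FPKM and a pseudocount of 0.1 together, 2 with library quality weights (which added Adam15), 0 without a filter, 0 with only the compared groups in the fit, 0 without WT replicate 1 and IgAN replicate 1 together, and 0 to 1 without each library in turn. For GQYS against IgAN, with 0 members as reported, it was 2 with quality weights, 1 with voom and 0 to 1 without each library in turn. In the wider fit of IgAN against WT, with 2 members as reported, it was 1 with a pseudocount of 1, 1 with quantile normalization, 1 without WT replicate 1 and IgAN replicate 1 together, 0 with only the compared groups, 3 with quality weights and 0 to 3 without each library in turn, and the 3 included Mmp3 both times. In that of GQYS against IgAN, with 0 as reported, it was 2 with quality weights and 1 with voom. For GQYS against WT it stayed at 0 in all of them. The cause of these shifts was not tested. Where libraries were left out, the fit also rested on fewer libraries. The log2 changes of 16 named results kept their direction in all 316 alternatives, of which 15 ended a call and 6 added one. The kept direction is no separate support, as the results were named with these data known. All but Mmp11 and Timp3 in IgAN against WT had ranges that did not overlap. For those, leaving out a library cannot reverse the direction.

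Same-numbered libraries did not deviate together in every pair, with correlations between -0.364 and 0.581, so the numbers are taken as names only. With a replicate block, 1 member passed in IgAN against WT and 2 in the wider fit, and no call of a member changed, while the number of all genes called in IgAN against WT was 68 with the block and 41 without it. Depth limits the low members: Mmp8 rests on at most 25 reads in any library and Timp1 on 1 read in GQYS replicate 1. With 3 libraries a group a missed threshold does not show that levels were alike.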
